A study of Caenorhabditis elegans with 9 samples.

Results

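The comparison described here set 6 libraries of worms exposed to a graphene material, taken as 1 group, against 3 libraries of unexposed worms. It asks which genes differ from control in the mean over the 6 exposed libraries. Whether a gene responds alike to each material is not part of that test. The 9 libraries make up the whole series, and 12849 of the 46284 genes in the deposited table entered the test. A gene entered if it had at least 1 FPKM (fragments counted per kilobase of a transcript, relative to all mapped fragments) in at least 3 of the 9 libraries. All groups were whole Caenorhabditis elegans of the wild-type strain N2, 500 worms to a sample, held in liquid culture for 12 h. The exposed libraries were 3 from worms given graphene oxide (GO, an oxidised sheet of carbon) and 3 from worms given GONH2, the same kind of sheet bearing amino groups. The 3 control libraries came from mock-treated worms. The sources used here give no dose, age or stage. Nothing in them says that replicates were grown apart, so a p-value here measures spread among these 9 samples and nothing beyond them.

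In C. elegans the intestine is both the digestive gland and a main site of defence. Its cells secrete lysozymes, C-type lectins (proteins with a sugar-binding fold) and saposin-like proteins (small membrane-active proteins), and they hold many lysosomes with cathepsin-like proteases and lipid-splitting enzymes. Many of these genes are induced by pathogens through the p38 kinase PMK-1 or are controlled by DAF-16, the transcription factor of the insulin pathway.

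Summed FPKM per library ran from 955606 to 1010900, and 12299 to 12676 genes per library reached 1 FPKM. Read totals are unknown, so no counting error can be given for a value. Libraries of the same group correlated at 0.986 to 0.993 (Pearson's r across genes, log2 scale) and libraries of different groups at 0.983 to 0.992. Summed markers of the intestine, body wall muscle, pharynx, neurons, germline, sperm, oocytes and coelomocytes overlapped between exposed and control libraries. All 9 intestine markers reached 1 FPKM in every library, with sums of 599 to 672 FPKM in exposed libraries and 606 to 680 FPKM in control libraries. Singly, 1 of the 9, ges-1, was called higher, and 3 had an unadjusted p under 0.05 (limma). Their log2 differences ran from −0.25 to 0.35, and 5 were positive. Markers of the hypodermis, the skin tissue, summed to 903 to 974 FPKM in exposed libraries and to 975 to 1012 FPKM in control libraries, so these sums did not overlap. Most of that sum is the collagen gene col-19, which averaged 804 FPKM in exposed and 855 FPKM in control libraries (−0.09, adjusted p = 0.681, limma). The other 4 tested hypodermis markers had positive differences, and none of the 5 passed. Of 5 pharynx markers, 3 had an unadjusted p under 0.05 and 2 lay below control in every exposed library, with a median log2 difference of −0.22 and none called. Of 7 sperm markers, 3 stayed under 1 FPKM in every library. The part of tissue composition in the results was not tested, and in whole animals fewer cells of a type and less RNA per cell cannot be told apart.

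The genes that were higher in exposed worms included lysozymes, 11 C-type lectins, saposin-like genes, cathepsin-like proteases and lysosomal enzymes, most of them by less than 1.5-fold. Far fewer genes were lower. Among them were the C-type lectins clec-218 and clec-5, the acid phosphatase gene pho-11 and the peptidase gene pcp-1. Of 12849 genes, 67 were higher (0.521%) and 13 lower (0.101%) in the 6 exposed libraries than in the 3 control libraries at an adjusted p under 0.05 (limma's moderated test on log2(FPKM + 1), Benjamini-Hochberg over all genes). Together the 80 genes were 0.623% of those tested. Of the 13 lower genes, asm-3, clec-70 and cel-mir-8199 reached 1 FPKM in no exposed library. They entered the test only through the control libraries, where they are high, so their calls count for nothing beyond their values, and 10 lower genes remain. An unadjusted p under 0.05 was found in 926 genes (7.21%). The median log2 difference over all genes was 0.01.

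These counts depended on single libraries. Without control replicate 1 the same test called 1 gene higher, the protease gene asp-1, and none lower, with all of the 77 called genes that were still tested keeping their sign at an unadjusted p of 0.00191 or less. Their median adjusted p was then 0.120. The 77 genes were called on libraries that include all those refitted, so kept signs and small unadjusted p-values are no further support. Without control replicate 2 the counts were 31 higher and 4 lower, and without control replicate 3 they were 31 and 9. Leaving out GO replicates 1, 2 or 3 gave 37, 44 or 45 genes higher, and leaving out GONH2 replicate 1 gave 42. Because the 6 exposed libraries form 1 group, any difference between GO and GONH2 counts as spread. A fit with 3 groups, in which the mean of GO and GONH2 was set against control, called 110 genes higher and 19 lower.

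**Figure D1:**
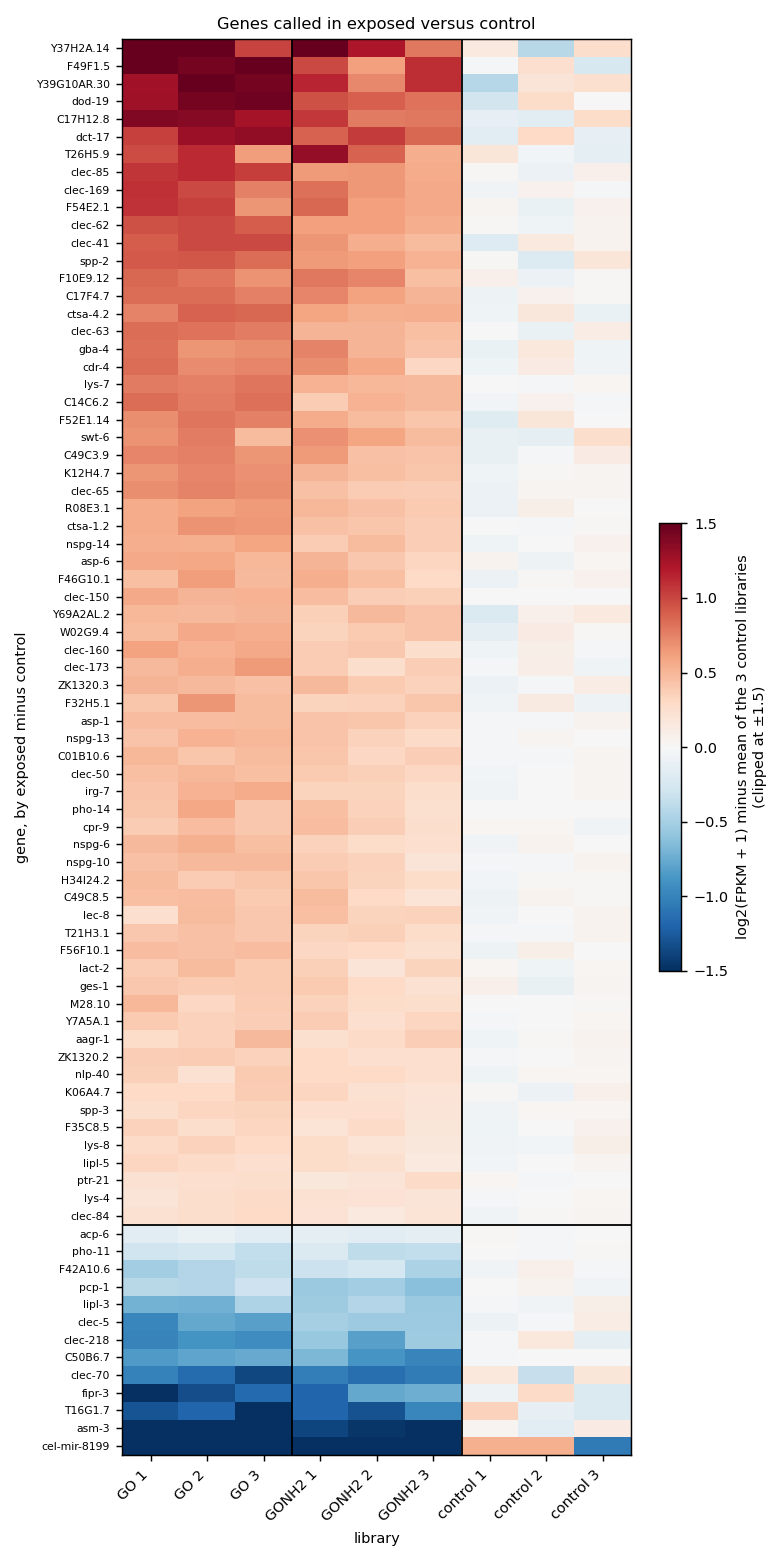
Difference of log2(FPKM + 1) from the mean of the 3 control libraries for the 80 called genes (rows), in the 3 GO, 3 GONH2 and 3 control libraries (columns), with colour limited to 1.5 in either direction. The 67 genes called higher are above the control mean in all 6 exposed libraries, and the 13 called lower are below it in all 6. The genes were chosen by a test on these same libraries.

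In all 80 called genes the exposed and control libraries did not overlap. The calls were made on these same libraries and favour such genes, so the lack of overlap is no further support for them. Across all 12849 genes, every exposed library lay above every control library in 347 (2.70%) and below in 124 (0.965%). The heat map of called genes shows the size of the shift per library. Over the 67 higher genes its median on the log2 scale was 0.50, 0.54 and 0.51 in GO replicates 1 to 3 and 0.44, 0.40 and 0.37 in GONH2 replicates 1 to 3, against −0.047, 0.0048 and 0.032 in control replicates 1 to 3. The rises ran from 1.17-fold to 2.46-fold with a median of 1.37-fold, on the log2(FPKM + 1) scale, which understates the change of low genes. Only 6 of the 67 genes rose at least 2-fold and 24 rose at least 1.5-fold.

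**Figure D2:**
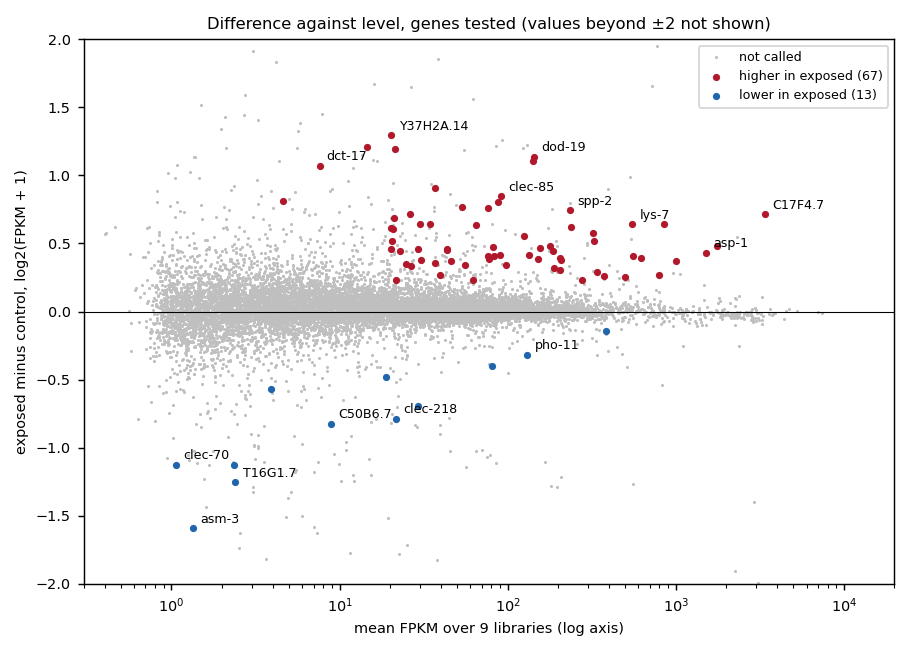
Mean level over the 9 libraries (x axis, FPKM, log scale) against the difference of exposed minus control (y axis, log2(FPKM + 1) scale) for each tested gene, with genes called higher and lower in colour; the 27 genes beyond 2 in either direction, 1 of them called, are not shown. Most called genes lie within 1 of 0 and to the right, at higher levels than most tested genes.

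The genes called higher had a median mean level of 82.7 FPKM and those called lower 18.96 FPKM, against 18.5 FPKM over all genes tested. A mean above 100 FPKM was seen in 40% of the 80 called genes and in 12.62% of all tested genes. Protein-coding genes made up 66 of the 67 genes called higher (98.5%) and 95.3% of all genes tested. By position in the WBcel235 annotation, 21 of the 67 (31.3%) were on chromosome V, which holds 19.2% of tested genes, and 3 (4.48%) on chromosome I, which holds 16.16%. These shares were not tested.

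C-type lectins held more called genes than any other list examined. Of 78 tested family members, 11 rose and 3 were called lower, clec-70 among them, and the median difference over the family was 0.11. The called members were 17.9% of the lectins tested, against 0.623% of all genes. Several smaller lists had higher shares, such as lysozymes (30%) and serine carboxypeptidases (27.3%). The lists were chosen with earlier results of these data known, so these shares are descriptions. The 17.9% includes clec-70, whose call counts for nothing beyond its values. In the counts for each list, rose and fell mean called higher and called lower, against 0.521% and 0.101% of all genes. clec-85 stood at 124, 128 and 121 FPKM with GO and 91.9, 92.8 and 86.8 FPKM with GONH2, against 59.4, 54.9 and 61.6 FPKM in control (0.85 ± 0.13, log2 difference ± SE, adjusted p = 0.0264, limma). All 6 exposed libraries lay above all controls, and the GO libraries lay above the GONH2 libraries. clec-62 had the same order, with 70, 72.2 and 68 FPKM with GO, 55.0, 55.1 and 52.4 FPKM with GONH2 and 36.1, 34.1 and 37 FPKM in control (0.77 ± 0.11, adjusted p = 0.0172, limma). Its neighbour clec-63 was the most abundant of the called lectins, at 839 to 1091 FPKM in exposed libraries (median 956) and 572 to 659 FPKM in control libraries (0.65, adjusted p = 0.0213, limma).

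clec-62, clec-63 and clec-65 lie together on chromosome II, between positions 12893062 and 12903336 of WBcel235, and all 3 rose. clec-84 and clec-85 are another pair of neighbours, on chromosome IV between 2842462 and 2855456. clec-150 and clec-50 had the smallest p among the lectins (both adjusted p = 0.00464, limma). clec-150 had 185, 178 and 179 FPKM with GO and 172, 161 and 160 FPKM with GONH2, against 124, 124 and 125 FPKM in control (0.47 ± 0.046). clec-50 had 626, 648 and 628 FPKM with GO and 602, 587 and 567 FPKM with GONH2, against 447, 458 and 472 FPKM in control (0.41 ± 0.042). The remaining lectins called higher were clec-169 (0.81), clec-41 (0.76), clec-65 (0.56), clec-160 (0.46), clec-173 (0.45) and clec-84 (0.23). The abundant members clec-87 and clec-88 did not pass, with log2 differences of −0.03 and 0.01.

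Lysozymes, which cleave bacterial cell walls, were called higher in 3 of 10 tested members, against 0.521% of all genes, and lower in none. Their median was 0.25, and 9 of the 10 had a positive difference. lys-7, a lysozyme gene with a part in antibacterial defence, lies on chromosome V from 3481432 to 3482600. It had 686, 678 and 701 FPKM with GO and 573, 566 and 562 FPKM with GONH2, against 398, 396 and 407 FPKM in control (0.64 ± 0.081, adjusted p = 0.00973, limma). The 3 groups of libraries did not overlap one another. lys-4 rose by less, to 282 to 302 FPKM in exposed libraries (median 289), against 244 to 253 FPKM in control libraries (0.23, adjusted p = 0.00730, limma), and lys-8 rose by 0.26 (adjusted p = 0.0404, limma). lys-1 lay above control in every exposed library but did not pass (0.30, adjusted p = 0.239, limma). The most abundant lysozyme gene, ilys-5 of the invertebrate type, averaged 1876 FPKM in exposed libraries and 1902 FPKM in control libraries.

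Of 10 tested infection response genes known to depend on PMK-1, 2 were called higher (against 0.521% of all genes) and none lower. One of them was clec-85, also counted among the lectins, and the other was C17H12.8, which encodes a secreted protein with a CUB-like domain. C17H12.8 had 209, 205 and 189 FPKM with GO and 166, 136 and 138 FPKM with GONH2, against 72.6, 70.8 and 96.1 FPKM in control (1.11 ± 0.16, adjusted p = 0.0188, limma). irg-7, an infection response gene chosen after its values were seen, rose by 0.41 (adjusted p = 0.0264, limma). Of 37 small antimicrobial peptide genes tested, none rose and 1 fell, 4 had an unadjusted p under 0.05, and their median was −0.12.

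**Figure D3:**
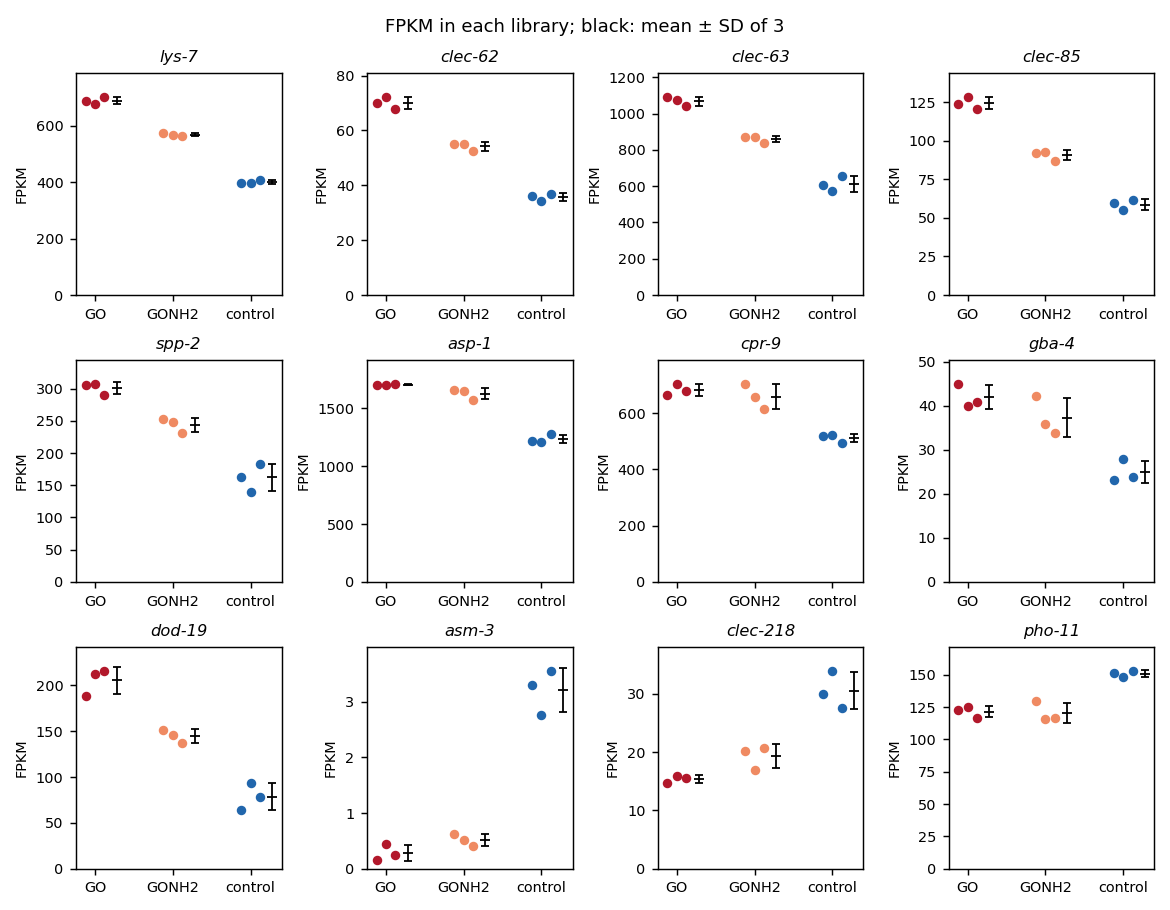
FPKM of 12 genes by library, with points for the 3 GO, 3 GONH2 and 3 control libraries (x axis) and a bar at each group's mean, on y axes of their own. lys-7, clec-62, clec-85 and dod-19 are highest with GO and intermediate with GONH2; asp-1, cpr-9 and pho-11 have nearly level GO and GONH2 points that all lie on one side of control.

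Saposin-like genes were called higher in 2 of 23 tested members, against 0.521% of all genes, and lower in none. Their median was 0.11, and 18 of the 23 had a positive difference. spp-2 and spp-3 are neighbours on chromosome X, between 7314969 and 7316818. spp-2 had 305, 307 and 290 FPKM with GO and 252, 248 and 231 FPKM with GONH2, against 163, 140 and 183 FPKM in control (0.74 ± 0.11, adjusted p = 0.0192, limma). spp-3 rose by 0.27 (adjusted p = 0.0125, limma). The abundant spp-5 did not pass (0.11), and neither did spp-14, which lay below control in every exposed library (−0.25, adjusted p = 0.0699, limma).

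Members of 3 classes of lysosomal and gut proteases rose. asp-1, an intestinal protease of the cathepsin D type on chromosome V from 19049562 to 19050752, had the smallest adjusted p among the genes called higher. It stood at 1700, 1700 and 1711 FPKM with GO and 1657, 1651 and 1574 FPKM with GONH2, against 1215, 1211 and 1277 FPKM in control (0.43 ± 0.033, adjusted p = 0.00129, limma). Once a control library was left out, asm-3, clec-70 and cel-mir-8199 could no longer be tested. Of the other called genes, asp-1 alone kept its call when each library in turn was left out. asp-6, of the same type, rose to 1729 to 2081 FPKM in exposed libraries (median 1965), against 1312 to 1440 FPKM in control libraries (0.48, adjusted p = 0.00973, limma). Of 11 aspartic protease genes tested these 2 were called higher, against 0.521% of all genes, and none lower, with a median of 0.17.

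Among 10 cysteine cathepsin genes, 1 was called higher, against 0.521% of all genes. This was cpr-9, of the cathepsin B type, with 664, 704 and 679 FPKM with GO and 704, 658 and 616 FPKM with GONH2, against 520, 521 and 494 FPKM in control (0.39, adjusted p = 0.00560, limma). The GO and GONH2 values of cpr-9 overlapped, and all lay above control. Of 11 serine carboxypeptidase genes, the cathepsin A homologues ctsa-1.2 (0.52, adjusted p = 0.0116, limma) and ctsa-4.2 (0.69, adjusted p = 0.0188, limma) rose. pcp-1, related to prolyl carboxypeptidases, fell to 14.9 to 18.8 FPKM in exposed libraries (median 16.6), against 22.7 to 24.5 FPKM in control libraries (−0.48, adjusted p = 0.0188, limma). ctsa-1.1 averaged 320 FPKM in exposed and 320 FPKM in control libraries.

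Lysosomal lipid and phosphate hydrolases moved in both directions. gba-4, a homologue of the glucosylceramide-splitting enzyme glucocerebrosidase, had 45, 39.8 and 40.9 FPKM with GO and 42.3, 35.8 and 33.8 FPKM with GONH2, against 23.1, 27.8 and 23.8 FPKM in control (0.65 ± 0.093, adjusted p = 0.0188, limma). asm-3, an acid sphingomyelinase gene, had 0.162, 0.446 and 0.241 FPKM with GO and 0.619, 0.524 and 0.407 FPKM with GONH2, against 3.30, 2.77 and 3.56 FPKM in control (a log2 difference of −1.59, given as a description for the reason above). gba-4 and asm-3 were the 2 called genes among 9 sphingolipid breakdown enzymes, whose median was 0.014.

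The lipase gene lipl-5 rose by 0.25 (adjusted p = 0.0188, limma), and lipl-3 fell to 2.82 to 3.63 FPKM in exposed libraries (median 3.32), against 5.05 to 5.68 FPKM in control libraries (−0.57, adjusted p = 0.0264, limma). Both are of the lysosomal lipase type, and 7 such genes were tested. Of 9 acid phosphatase genes, pho-14 rose by 0.41 (adjusted p = 0.0227, limma) and pho-11 fell. pho-11 had 122.5, 125 and 117 FPKM with GO and 130, 115 and 116 FPKM with GONH2, against 151, 148 and 153 FPKM in control (−0.32, adjusted p = 0.00973, limma). acp-6, another acid phosphatase gene, had the smallest called change (−0.14, adjusted p = 0.0233, limma). No call was made among 21 subunits of the V-ATPase, the proton pump of the lysosome, or among 3 genes of the DNase II type. At an unadjusted p under 0.05 there were 2 V-ATPase genes and 2 of the DNase II type.

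**Figure D4:**
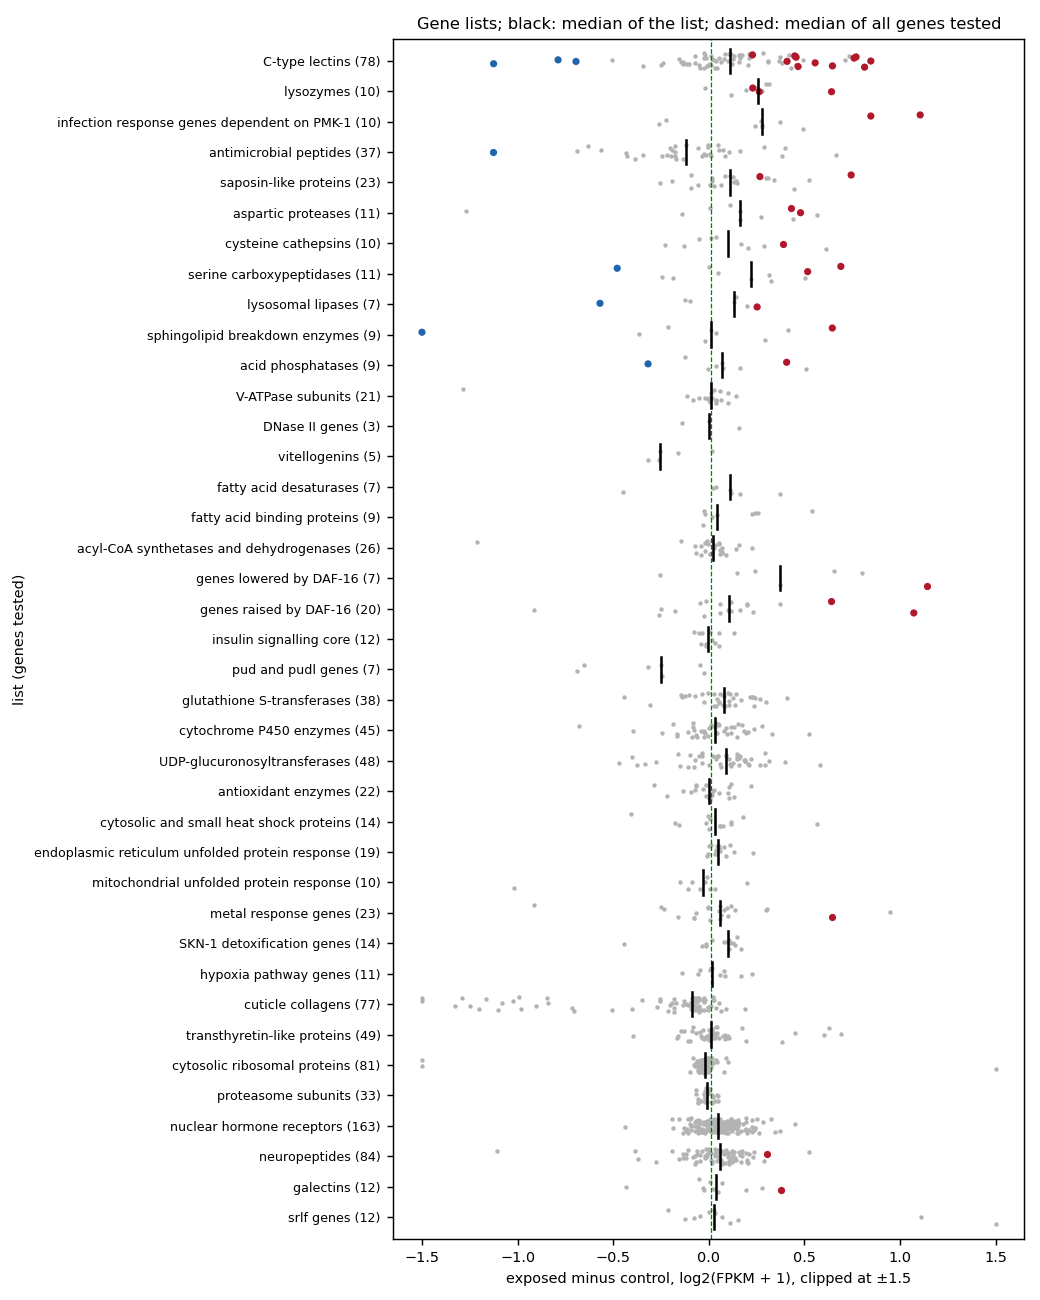
Difference of exposed minus control (x axis, log2(FPKM + 1) scale) for each tested member of the gene groups (y axis), with values limited to 1.5 in either direction, called members in colour, a black bar at each list's median and a dashed line at the median of all genes. C-type lectins, lysozymes and proteases hold called members to the right of 0, and collagens and ribosomal proteins hold none.

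Of 7 tested genes known to be lowered by DAF-16, 1 rose, 5 had an unadjusted p under 0.05, and the median was 0.37. In 4 of the 7 every exposed library lay above every control library, and in 1 every exposed library lay below, against 2.70% and 0.965% of all genes tested. The list shares a member, dod-24, with the PMK-1 list, and its median is the value of that gene. The gene that rose was dod-19, on chromosome V from 411782 to 414759, with 188, 212 and 216 FPKM with GO and 152, 146 and 137 FPKM with GONH2, against 64.3, 94.0 and 77.8 FPKM in control (1.14 ± 0.17, adjusted p = 0.0216, limma). Its 3 groups of libraries did not overlap. Of 20 genes known to be raised by DAF-16, lys-7 and dct-17 rose, and none of 12 core genes of the insulin pathway was called or had an unadjusted p under 0.05. dct-17 had 7.91 to 11.4 FPKM in exposed libraries (median 9.07) and 3.37 to 5.03 FPKM in control libraries (1.07 ± 0.14, adjusted p = 0.0116, limma).

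clec-218 and clec-5 were the lectins that fell. clec-218 had 14.7, 15.9 and 15.5 FPKM with GO and 20.2, 16.9 and 20.7 FPKM with GONH2, against 30, 34 and 27.6 FPKM in control (−0.79, adjusted p = 0.0188, limma). clec-5 fell by 0.69 on the log2 scale (adjusted p = 0.0249, limma), and clec-70 had 0.246 to 0.588 FPKM in exposed libraries (median 0.509) and 1.53 to 2.64 FPKM in control libraries. fipr-3, related to fungus-induced proteins, had 0.738 to 2.11 FPKM in exposed libraries (median 1.29) and 3.47 to 5.33 FPKM in control libraries (−1.13, adjusted p = 0.0443, limma). Its call was lost with 0.1 or 0.5 FPKM added before the logarithm (adjusted p = 0.0723 and 0.0561). A microRNA gene, cel-mir-8199, had a listed value of 0 in all 6 exposed libraries and at 728, 731 and 242 FPKM in control. Other abundant genes in the table also hold single zeros, so no fold is given for it.

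Among called genes that carry a sequence name only, the 3 largest rises belonged to Y37H2A.14 (1.30, adjusted p = 0.0329, limma), F49F1.5 (1.21, adjusted p = 0.0444) and Y39G10AR.30 (1.20, adjusted p = 0.0273). Y39G10AR.30 overlaps the translation factor gene eif-2gamma on the other strand, and whether strand was used in counting is not given, so its reads may be shared. T16G1.7 changed by −1.26 (adjusted p = 0.00973, limma). C50B6.7 had 6.05 to 7.77 FPKM in exposed libraries (median 6.91) and 12.9, 13.1 and 13 FPKM in control (−0.83, adjusted p = 0.00305, limma). Of the 80 called genes, 23 overlap another protein-coding gene, 21 of them a gene on the other strand; lys-8, pho-11, ctsa-1.2, clec-84, clec-85, swt-6, fipr-3, T16G1.7, C50B6.7, C14C6.2, aagr-1, nspg-6 and nspg-10 are among these 21, and the same limit holds for them.

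Several further called genes were chosen here after their values were seen. C17F4.7, on chromosome II from 3245087 to 3246015, was the most abundant called gene, at 3393 to 4266 FPKM in exposed libraries (median 3991) and 2266 to 2482 FPKM in control libraries (0.71, adjusted p = 0.00477, limma). nlp-40, an intestinal neuropeptide gene that drives the defecation rhythm, rose by 0.30 (adjusted p = 0.0116, limma). ges-1, the gut esterase gene, rose by 0.35 (adjusted p = 0.0273, limma), while the sum of the 9 intestine markers that include it overlapped between groups. lec-8, a galectin gene, rose by 0.38 (adjusted p = 0.0103, limma), and aagr-1, related to acid alpha-glucosidase, by 0.34 (adjusted p = 0.0329, limma). The nspg genes encode a nematode-specific peptide group. Of 10 tested, 4 were called higher (nspg-14, nspg-13, nspg-10 and nspg-6), against 0.521% of all genes, and none lower.

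The pooled test called 3 genes that neither material alone brought past the threshold against control. They were the sugar transporter gene swt-6 (0.61, adjusted p = 0.0329, limma), ptr-21 of the patched-related family (0.23, adjusted p = 0.0404) and T26H5.9 (0.91, adjusted p = 0.0443). T26H5.9 had 45.6, 50.4 and 35.6 FPKM with GO and 58.2, 42.7 and 33.5 FPKM with GONH2, against 25.8, 22 and 20.6 FPKM in control. Its difference between GONH2 and GO was 0.01 with a 95% interval of 0.45 to each side. Set against control singly, with the same 3 control libraries in both, GO had 139 genes higher (1.08%) and 23 lower (0.179%), and GONH2 had 46 higher (0.358%) and 10 lower (0.0778%).

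The difference between the materials is estimated from the GO and GONH2 libraries, while the control libraries add to the estimate of spread behind its p-values. In GONH2 against GO, 17 of all 12849 genes passed (0.132%), and 5 of them were among the 80 called against control. Those 5 were lys-7, clec-85, clec-62, clec-65 and C14C6.2, and each was lower with GONH2 than with GO. Without GONH2 replicate 3 the same test called 1 gene. The GONH2 mean lay below the GO mean in 66 of the 67 genes called higher, against 62.9% of all genes tested, and in 64 to 67 of them under each other scaling and without each library. The median of GONH2 minus GO over these 67 genes was −0.14 on the log2 scale, against −0.024 over all genes (0.0088 after quantile normalization). Their median difference from control was 0.40 with GONH2 and 0.52 with GO. In the 12 genes called lower other than cel-mir-8199, the GONH2 mean lay above the GO mean in 9, against 37.1% of all genes tested. The 9 include asm-3 and clec-70, which entered the test only through the control libraries, so this count is a description.

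**Figure D5:**
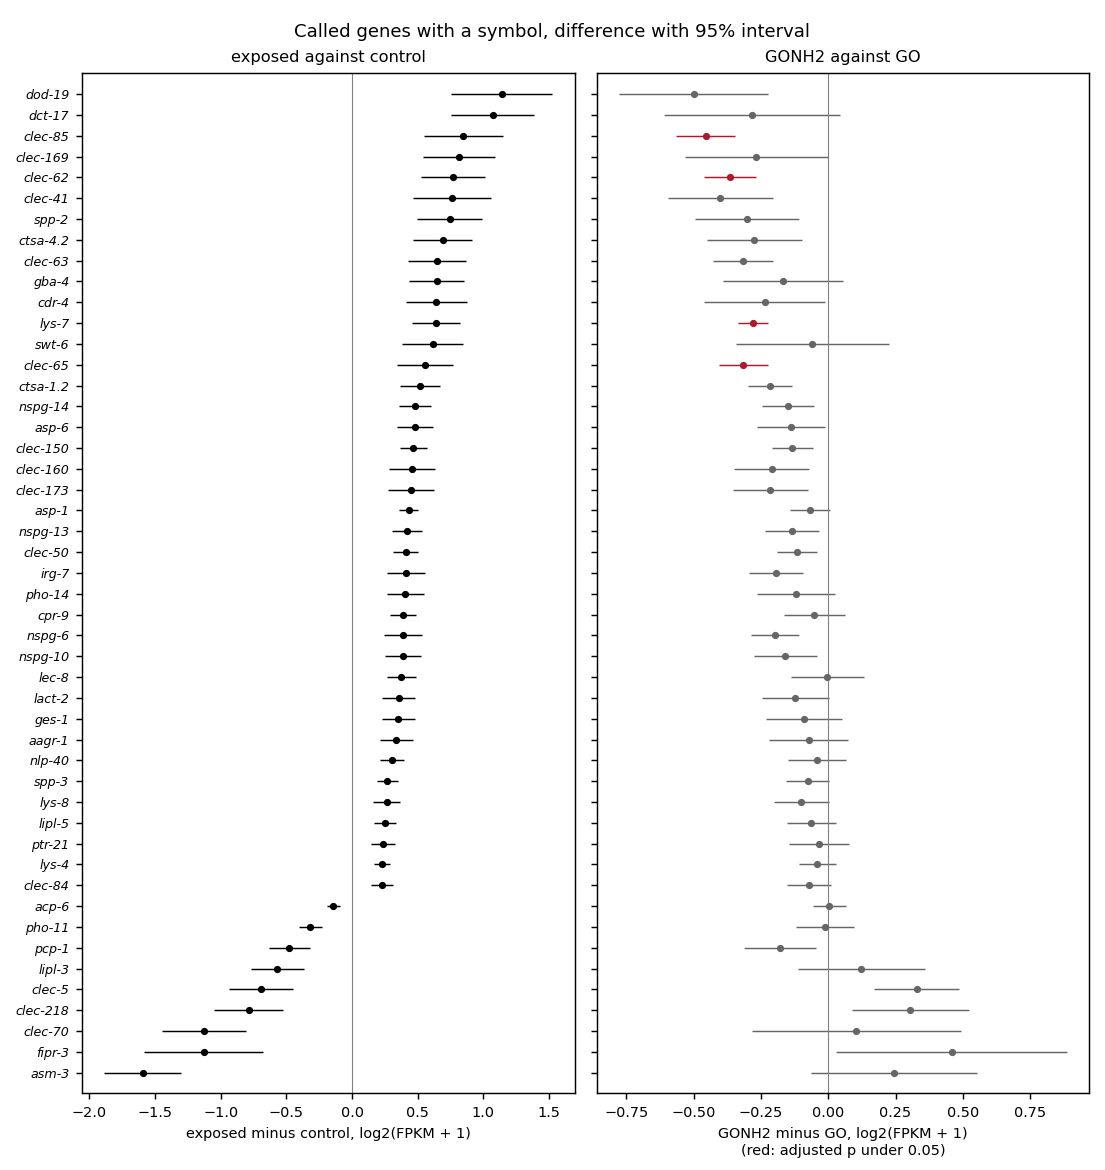
Difference of GONH2 minus GO with its 95% interval (x axis, log2(FPKM + 1) scale) for 48 called genes that have a symbol, without cel-mir-8199 (y axis). Nearly all genes called higher lie left of 0, and those that also passed in GONH2 against GO are lys-7, clec-85, clec-62 and clec-65.

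The interval of GONH2 minus GO left out 0 in 38 of the 80 called genes, against 4.65% of all tested genes. These 2 shares are not a like comparison, because the call favours genes with little spread in these same libraries. The median interval of GONH2 minus GO extended 0.125 to each side in the genes called higher and 0.217 over all genes. For asp-1 the difference was −0.07 with an interval of 0.075 to each side, and for pho-11 it was −0.01 with 0.11 to each side. For asm-3 it was 0.25 with 0.31 to each side, and for dod-19 −0.50 with 0.28 to each side (adjusted p = 0.493, limma). The plot of GONH2 minus GO shows these intervals gene by gene.

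Some genes with large differences between the materials did not pass in the pooled comparison. C01G10.4 had 45.9, 58.4 and 51.7 FPKM with GO and 2.69, 5.06 and 4.13 FPKM with GONH2, against 0.477, 0.431 and 0 FPKM in control (adjusted p = 0.250, limma). srlf-3 had 27.9, 30.6 and 34.2 FPKM with GO and 12.1, 13.4 and 10.6 FPKM with GONH2, against 4.80, 6.51 and 4.95 FPKM in control (adjusted p = 0.136). dod-23, downstream of DAF-16, had 315, 354 and 365 FPKM with GO and 200, 221 and 196 FPKM with GONH2, against 142.2, 153 and 162 FPKM in control (adjusted p = 0.254). In each of the 3 genes every GO library exceeded every GONH2 library and every GONH2 library exceeded every control library. They passed in GONH2 against GO and were chosen here by that result.

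Over all genes, 0.623% were called and 7.21% had an unadjusted p under 0.05. A list of this size without a call is near the first share, but it can still lie above the second. Among genes of detoxification and stress, none passed in the lists of 38 glutathione S-transferases, 45 cytochrome P450s, 48 UDP-glucuronosyltransferases, 22 antioxidant genes, 14 heat shock genes and 14 targets of SKN-1, the oxidative stress factor. Their medians lay between 0.0030 and 0.10. At an unadjusted p under 0.05 (limma) these lists held 4, 5, 8, 0, 1 and 1 genes in the same order. The UDP-glucuronosyltransferases, with 8 of 48, lay above the 7.21% of all genes, which was not tested further. Of 23 metal response genes, 1 rose. This was cdr-4 of the cadmium-responsive family, with 26.9 to 39.4 FPKM in exposed libraries (median 35.6) and 20.6 to 23.5 FPKM in control libraries (0.64, adjusted p = 0.0285, limma). Genes for the unfolded protein response of the endoplasmic reticulum (19 tested) and of mitochondria (10 tested) were not called either, with 1 and 2 genes at an unadjusted p under 0.05.

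Yolk, cuticle and ribosomal protein genes are read against the same shares. Of the 5 vitellogenin genes, which encode yolk proteins, none passed (2 at an unadjusted p under 0.05), and their median was −0.25. vit-5 had 2070 to 2389 FPKM in exposed libraries (median 2224) and 2605 to 2721 FPKM in control libraries (adjusted p = 0.0637, limma). Of 77 collagen genes, 9 had a positive difference, 21 had an unadjusted p under 0.05 and none passed. Their median was −0.089. Over all genes tested, 57.6% had a positive difference and 7.21% an unadjusted p under 0.05. The collagens thus lay away from both shares, although none was called. The collagen col-19 is in this list and in that of hypodermis markers. The 81 ribosomal protein genes had a median of −0.021 and 15 with a positive difference, and 4 had an unadjusted p under 0.05.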

How the data were processed

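Per the labels' protocols, RNA was taken from whole animals in TRIzol with beads, purified on RNeasy columns, and made into stranded TruSeq libraries for paired-end reads on a HiSeq instrument. The authors deposited 1 table of FPKM for 46284 gene IDs in 9 libraries. The aligner, read counter, genome build and strand setting were not given in the sources used here. Per the submitters' processing notes DESeq2 was used, with no version or role stated.

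Symbols and positions came from Ensembl's WBcel235 annotation (release 115), in which 43325 IDs had a name and 46109 a position. Groups were taken from the labels. Values were converted to log2(FPKM + 1), and genes at 1 FPKM or more in at least 3 libraries were tested. At that limit slc-9B.2 had 1.00 FPKM in its third-highest library and was kept, and M151.2 had 0.999 FPKM and was not. The pooled model of 6 exposed against 3 control libraries was a linear model in limma 3.58.1 (R 4.3.3) whose variances were moderated with a trend on the mean level (residual degrees of freedom 7, prior 2.445). A 3-group model gave GONH2 minus GO and each material minus control (residual degrees of freedom 6, prior 2.472). P-values were adjusted by Benjamini-Hochberg over 12849 genes at a threshold of 0.05. The median 95% interval of an exposed minus control difference extended 0.186 to each side. Because the values are FPKM, no count test was run, and the depth per sample is unknown.

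In 157 genes, 74 of them tested, some libraries held a 0 while the others had a median of at least 10 FPKM. These zeros were kept. The model steps were tested on simulated data with equal shifts in all exposed libraries. No difference between the materials was simulated, so its effect on the pooled test was not covered. The members and gene lists were chosen with earlier results of these data known.

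Genes to name were picked by a rule. It took the 12 largest rises and falls among called genes with a symbol and up to 4 called members of each list with at least 2 calls. It took the 2 most abundant members of such lists that missed the threshold, and called genes that neither material alone brought past the threshold. Called genes that also passed in GONH2 against GO, and up to 4 genes without a symbol in each direction, were also taken. The abundant members asp-3, pcp-5, lipl-7, asah-1, asah-2, pho-5, dct-16 and lys-2 are not described above. Of these, asp-3 and asah-2 came closest to the threshold (adjusted p = 0.0601 and 0.0690, limma). The nspg and acp lists were added after values were seen. Alternatives covered the pseudocount, the filter, the scaling, the trend, a robust prior, array weights, the replicate number as a block, the zeros, protein-coding genes only, stricter thresholds and leaving out each library. Plots were made in matplotlib 3.10.9 (Python 3.11.15).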

Additional observations from a re-analysis of the deposited data

Results flagged for a closer look

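Of 63 genes picked by the naming rule whose 6 exposed libraries were compared with one another, 2 had a library far from the other 5. spp-14, a saposin-like gene, stood at 926 FPKM in GO replicate 1, below the other exposed libraries. asp-5, of the cathepsin D type, was listed at 0 in GO replicate 1 and at 633 to 720 FPKM in the other exposed libraries. Chance alone would set apart about 1 in 20 such groups.

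In 5 of the 80 called genes the effects of the 2 materials differed by a test of the difference itself (GONH2 minus GO, limma, adjusted over all genes). clec-85 differed by −0.46 (adjusted p = 0.0107) and clec-62 by −0.36 (adjusted p = 0.0172). clec-65, from the same stretch of chromosome II as clec-62, differed by −0.32 (adjusted p = 0.0316). lys-7 differed by −0.28 (adjusted p = 0.00725) and C14C6.2 by −0.35 (adjusted p = 0.0427). In all 5 genes the 3 GONH2 libraries lay between the GO and the control libraries.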

How the results depend on the processing

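Every called gene that could be fitted kept its sign under every alternative tried. The genes were called on these same libraries, so the kept signs are no further support. The number past the threshold moved. Against 67 genes higher and 13 lower, the contrast of the mean of GO and GONH2 in the 3-group fit called 110 higher. Testing every gene above 0 FPKM in any library left 34 higher, dropping the trend left 40, and the replicate number as a block left 32 higher and 8 lower. Same-numbered libraries of different groups correlated in their deviations at −0.11 to 0.25, over 0.1 in 2 of 9 pairs, against −0.35 to 0.35 in other pairs. With 3 libraries per group these correlations cannot settle whether the numbers pair samples. An adjusted p under 0.01 left 19 higher and 6 lower, and at least 1.5-fold left 24 and 8. Leaving out each library gave 1 to 85 higher and 0 to 14 lower. Chosen after seeing the data, the 3-group contrast without control replicate 1 called 75 higher and 9 lower, with 57 of the 80 genes among them.

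For GONH2 against GO, 17 genes became 9 without the trend, 43 with array weights, 8 with the replicate block, 8 at an adjusted p under 0.01, 9 at 1.5-fold or more, and 1 to 20 without each library. The cause of these changes was not tested.

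Among named genes, lys-8 (adjusted p = 0.0536) and ptr-21 (0.0623) lost their calls under median-of-ratios scaling, and lipl-3 (0.0646), swt-6 (0.0502) and ptr-21 (0.105) under quantile normalization. lipl-3 also lost its call at a minimum of 5 FPKM (0.0556), T26H5.9 with a robust prior (0.0512), and fipr-3 with either other pseudocount (0.0723 and 0.0561).

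Only genes that were not called changed sign. clec-88 went to −0.0012 and ctsa-1.1 to −0.016 under median-of-ratios scaling, and to −0.038 and −0.024 under quantile normalization. ilys-5 became 0.0025 and pho-1 0.086 with array weights. asp-5 became 0.30 with its zero set to missing (adjusted p = 0.0447, limma). Across the fits without each library, clec-88 ranged from −0.0067 to 0.058, ctsa-1.1 from −0.019 to 0.033, ilys-5 from −0.080 to 0.055, pho-1 from −0.22 to 0.26, sip-1 from −0.034 to 0.0030, lipl-2 from −0.026 to 0.38 and asp-5 from −1.60 to 0.30 (0.30 without GO replicate 1, adjusted p = 0.0659).

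Read totals are unknown, so low genes such as asm-3 and clec-70 rest on an unknown number of reads.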

Other observations

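The pooled group can hide genes on which the materials lay on opposite sides of control. pud-3 and pud-4 belong to a family of small proteins named for their rise in daf-2 insulin receptor mutants, and both were chosen here because they passed in GONH2 against GO. pud-3 had 96.0, 96.7 and 103 FPKM with GO and 181, 175 and 193 FPKM with GONH2, against 138, 155 and 124 FPKM in control. Every GO library lay below control and every GONH2 library above it. pud-4 had 44.3, 40.7 and 46.6 FPKM with GO and 91.4, 75.6 and 89.7 FPKM with GONH2, against 80.0, 70.7 and 68.5 FPKM in control. For pud-4 the GO libraries lay below control and the GONH2 libraries overlapped it. None of the 7 tested pud and pudl genes was called in the pooled comparison (limma), and 3 had an unadjusted p under 0.05.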
